A study of Bos taurus with 6 samples.

Results

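The genes described here make steroid hormones or deliver cholesterol to the cells that make them: SCARB1, STAR, CYP11A1, FDX1, FDXR, HSD3B1, CYP17A1, POR, CYP19A1 and HSD17B1. They were taken by symbol from the array's probe annotation, where 13 probes carried the symbol of 9 of these 10 genes, out of 43753 probes and 12334 named genes that could be tested. No probe listed there carried the symbol FDXR, which is not analysed here. STAR and CYP19A1 had 3 probes each and the other 7 genes 1 each. Of the 13 probes, 12 passed the filter on dim probes, and each of the 9 genes kept at least 1.

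The samples came from beef cows that had calved more than once, 3 of them superstimulated and 3 not, and were dissected and frozen. In superstimulation, injected gonadotropins make several ovarian follicles grow at once. The labels give gonadotropins as the hormone treatment of every cow, those of the group without superstimulation included, and give no tissue, dose or time, and of the breed only that it is beef. RNA was amplified in 2 rounds before labelling. Each superstimulated cow was hybridised against the non-superstimulated cow of the same number on a two-colour array and again with the dyes exchanged, which gave 6 arrays and 3 cow pairs.

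Steroid synthesis starts with cholesterol, which cells take up from lipoproteins through receptors such as SCARB1. STAR moves it to the inner mitochondrial membrane, where CYP11A1, fed with electrons by ferredoxin (FDX1) and its reductase, cuts its side chain to give pregnenolone, and HSD3B1 turns pregnenolone into progesterone. In the ovarian follicle, theca cells use CYP17A1 with the electron donor POR to make androgens, and granulosa cells turn these into oestrogens with the aromatase CYP19A1 and the reductase HSD17B1. In the wall of a follicle that has received the ovulatory luteinizing hormone surge, aromatase is known to decline while STAR, CYP11A1 and HSD3B1 increase as the wall luteinizes.

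Which cow carried which dye is stated in opposite ways. By the dye fields, Cy5 marks the superstimulated cows on arrays 1 to 3, whereas the worked example of the design description gives them Cy3; under that reading all signs are opposite. All ratios are log2 of superstimulated over non-superstimulated cows as the dye fields have it, and "higher" and "lower" are used in that sense. How genes and pairs stand relative to each other does not depend on it.

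Arrays 1 to 3 lay on 1 slide and arrays 4 to 6 on another, so slide and dye orientation cannot be told apart. The median probe intensity was 152 to 299 in Cy5 and 161 to 283 in Cy3. The ratios of an array and its dye swap correlated over 31957 probes at 0.04 in pair 1, 0.72 in pair 2 and 0.57 in pair 3. A probe counted as detected in a channel of an array where its foreground exceeded that of 95% of the 756 negative controls. Of 14 granulosa cell markers, 11 were detected in all 12 channels, among them FSHR, AMH, INHA and INHBA, whereas FOXL2 did not pass the filter. The summed intensity of the 13 that passed was 150425 to 179798 in superstimulated cows and 111007 to 148864 in non-superstimulated cows. Theca and stroma markers had 9 of 17 detected in all channels, with sums of 46932 to 58584 in superstimulated and 37234 to 47157 in non-superstimulated cows. Of the markers with a probe, 1 of 10 endothelial and 2 of 12 leukocyte genes were detected in all channels. In a sample of mixed cells, fewer cells of a type and less RNA per cell cannot be told apart. The part of the cell mixture in the results below was not tested.

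Over the 3 pairs, none of the 9 genes passed the threshold of the comparison between superstimulated and non-superstimulated cows, an adjusted p of 0.05 by limma over all genes. This held for all genes: 0 of 12334, or 0%, passed. At an unadjusted p under 0.05 by limma there were 0 of the 9 genes and 444, or 3.60%, of all genes (1.34% higher, 2.26% lower), and 0 of the 12 member probes against 3.25% of all probes. The mean ratio was above 0 for 5 of the 9 and below 0 for 4, with a median of 0.02 against -0.02 over all genes. No gene of the 9 kept its sign in all 3 pairs, against 23.0% of all genes, and none on all 6 arrays, against 7.13%. For none of them did the levels of the 3 superstimulated cows stand clear of those of the 3 non-superstimulated cows, against 5.89% of all genes. FDX1, SCARB1 and HSD3B1 had mean ratios of 2-fold or more, as had 2.48% of all genes, but for each the SD over the pairs exceeded the mean. Without pair 1 the mean of STAR was -0.07, and without pair 2 that of HSD3B1 was -0.03, of CYP11A1 0.01 and of SCARB1 0.32. The number of cow pairs, 3, limits how precise these means can be.

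**Figure D1:**
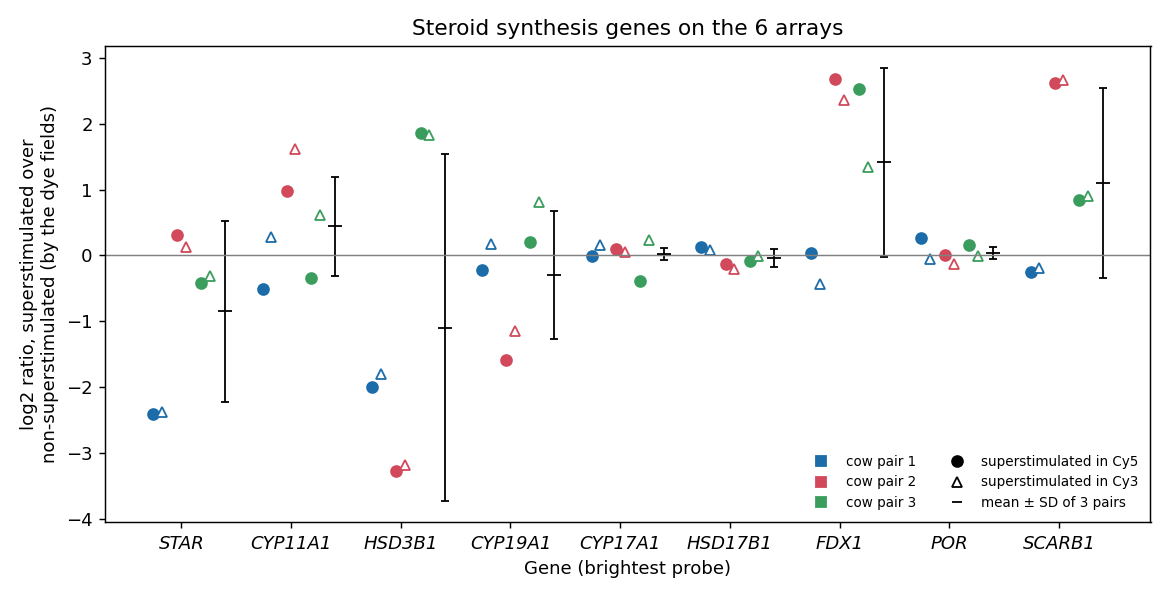
Log2 ratio of superstimulated over non-superstimulated cows, by the dye fields, of 9 genes (x axis, brightest probe of each) on each of the 6 arrays. Colours are cow pairs, filled circles arrays with the superstimulated cow in Cy5 and open triangles the dye swaps; black marks are the mean ± SD of 3 pairs. The 2 arrays of a pair lie close together for HSD3B1, STAR and SCARB1, whereas the pairs lie far apart.

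SCARB1, the receptor that takes cholesterol esters from high-density lipoprotein, had log2 levels of 8.11, 11.33 and 9.23 in superstimulated cows 1, 2 and 3, against 8.33, 8.69 and 8.36 in non-superstimulated cows 1, 2 and 3. Superstimulated cow 2 stood far above the other 5, superstimulated cow 3 somewhat above the rest, and superstimulated cow 1 was the lowest of all. The SD over 3 cows was 1.63 in superstimulated and 0.20 in non-superstimulated cows. The ratio was -0.22 in pair 1, 2.64 in pair 2 and 0.87 in pair 3, with a mean of 1.10 ± 1.44 (SD, n = 3 pairs; adjusted p = 0.995 by limma). In pair 2 that is 6.23-fold. The 2 arrays of a pair differed by at most 0.07.

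STAR, the cholesterol carrier of the mitochondrion, had log2 levels of 9.45, 8.65 and 8.21 in superstimulated cows 1, 2 and 3, against 11.84, 8.43 and 8.58 in non-superstimulated cows on its brightest probe. Non-superstimulated cow 1 stood alone above the other 5 cows. The ratio was -2.39 in pair 1, 0.22 in pair 2 and -0.37 in pair 3, a mean of -0.85 ± 1.37 (SD, n = 3 pairs; adjusted p = 0.995 by limma). STAR was thus 5.26-fold lower in the superstimulated cow of pair 1, and the 2 arrays of that pair gave -2.41 and -2.38. The second probe gave -2.22, 0.27 and -0.10 in pairs 1, 2 and 3, with levels of 8.95, 8.32 and 7.37 in superstimulated and 11.18, 8.06 and 7.47 in non-superstimulated cows. Both probes therefore put the same cow apart. The dimmest STAR probe was detected on 0 of 6 arrays in superstimulated cows and on 2 of 6 in non-superstimulated cows, both of them of cow 1. Its ratios of -0.63, 0.08 and -0.08 in pairs 1, 2 and 3 lie at the level of the background, and it was not tested.

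CYP11A1, the side chain cleavage enzyme, had log2 levels of 9.74, 11.45 and 7.54 in superstimulated cows 1, 2 and 3, against 9.85, 10.16 and 7.41 in non-superstimulated cows. Superstimulated cow 2 was the highest, and the 2 cows numbered 3 were the lowest. The ratio was -0.11, 1.30 and 0.13 in pairs 1, 2 and 3, with a mean of 0.44 ± 0.75 (SD, n = 3 pairs; adjusted p = 0.995 by limma). Its dye effect was large: arrays 1 to 3 gave -0.51, 0.97 and -0.34 and arrays 4 to 6 gave 0.29, 1.62 and 0.61. The dye term of -0.40 passed the threshold (adjusted p = 0.0037 by limma), as it did for FDX1 and CYP19A1 and for 32.4% of all genes.

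FDX1, the ferredoxin that brings electrons to CYP11A1, had log2 levels of 13.19, 15.10 and 13.36 in superstimulated cows, against 13.39, 12.58 and 11.43 in non-superstimulated cows. Superstimulated cow 2 was the highest and non-superstimulated cow 3 the lowest. The ratio was -0.20, 2.52 and 1.93 in pairs 1, 2 and 3, with a mean of 1.42 ± 1.43 (SD, n = 3 pairs; adjusted p = 0.995 by limma), a 2.67-fold mean difference. In pair 3 its 2 arrays gave 2.52 and 1.35. In superstimulated cow 2 the raw foreground of this bright probe was 32971 in Cy5 and 33682 in Cy3, close to the highest values of those channels, 39653 and 39484.

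HSD3B1, which makes progesterone, varied most between pairs. It had log2 levels of 10.14, 7.41 and 9.50 in superstimulated cows 1, 2 and 3, against 12.03, 10.64 and 7.66 in non-superstimulated cows. The lowest level belonged to superstimulated cow 2 and the next to non-superstimulated cow 3. The ratio was -1.90 in pair 1, -3.22 in pair 2 and 1.84 in pair 3, with a mean of -1.09 ± 2.63 (SD, n = 3 pairs; adjusted p = 0.995 by limma). In folds it was 3.72 lower, 9.34 lower and 3.58 higher in the superstimulated cow of pairs 1, 2 and 3. The lowest foreground was 1.2 times the detection limit in superstimulated and 1.12 times in non-superstimulated cows. The folds of pairs 2 and 3 include the 2 lowest levels, so their size is uncertain. The range of 5.06 over the pairs was larger than that of 99.4% of all genes, and its dye swaps differed by at most 0.19.

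**Figure D2:**
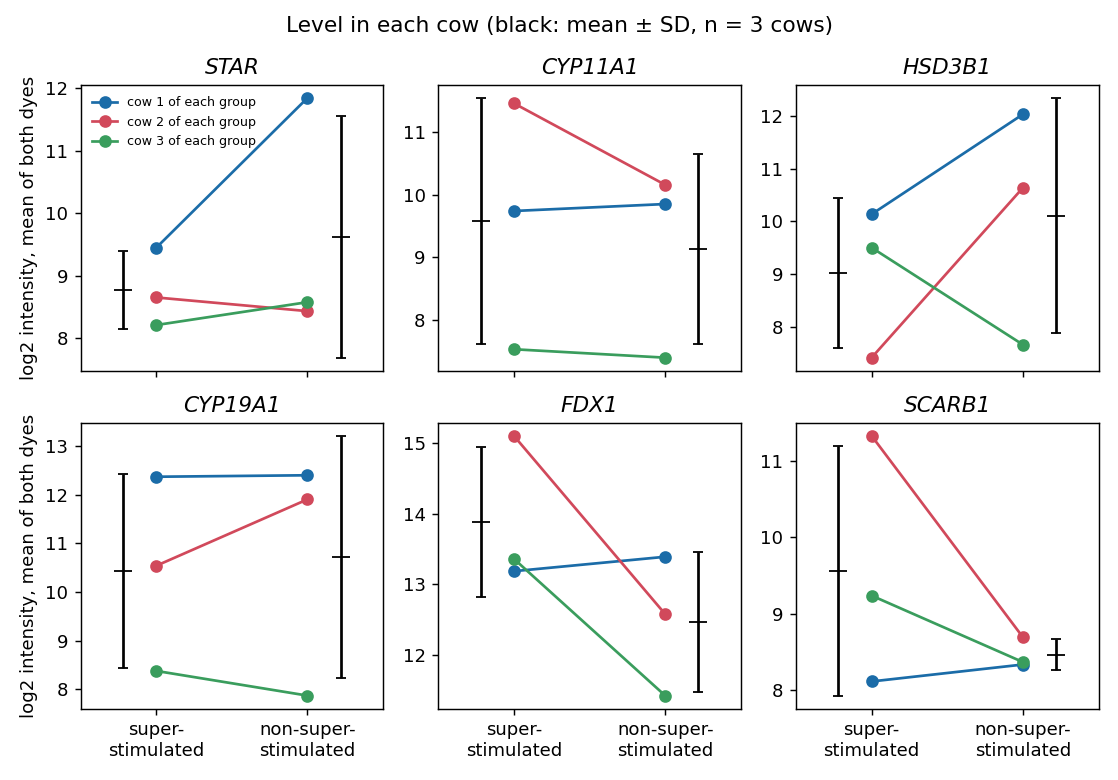
Log2 intensity (y axis, mean of both dyes) of 6 genes in each superstimulated and each non-superstimulated cow. Lines join cows of the same number, which shared their arrays; black marks are the mean ± SD of 3 cows. The levels of the groups overlap in all 6 panels, and CYP11A1 and CYP19A1 are lowest in both cows numbered 3.

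CYP17A1, the enzyme that opens the way to androgens, was near the background. It was detected on 2 of 6 arrays in superstimulated cows and on 3 of 6 in non-superstimulated cows, and its foreground was 0.82 to 1.2 times the detection limit in superstimulated and 0.82 to 1.32 times in non-superstimulated cows. Its ratio of 0.02 ± 0.09 (SD, n = 3 pairs; adjusted p = 0.998 by limma) compares signals at that level. HSD17B1, which reduces oestrone to oestradiol, was detected on 2 of 6 arrays in superstimulated cows and 1 of 6 in non-superstimulated cows, with a ratio of -0.04 ± 0.14. POR, the reductase that serves the microsomal cytochromes P450, was detected in all 12 channels but never above 1.22 times the limit in superstimulated or 1.17 times in non-superstimulated cows. Its ratio was 0.11, -0.06 and 0.08 in pairs 1, 2 and 3. For these 3 genes a difference between the groups was not detectable at this signal, which does not show that there was none.

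CYP19A1, the aromatase, had log2 levels of 12.37, 10.54 and 8.38 in superstimulated cows 1, 2 and 3 on its brightest probe, against 12.40, 11.90 and 7.87 in non-superstimulated cows. The ratio was -0.03 in pair 1, -1.36 in pair 2 and 0.51 in pair 3, a mean of -0.30 ± 0.96 (SD, n = 3 pairs; adjusted p = 0.995 by limma). Its 3 probes did not give the same ratio. The second gave 0.47, -0.96 and -0.02 in pairs 1, 2 and 3, and the dimmest 0.92, -0.13 and 0.01. In pair 1 the superstimulated cow was higher on the second probe (adjusted p = 0.022 over all probes by limma) and on the dimmest (adjusted p = 0.0021), and the brightest did not pass (adjusted p = 0.92). In pair 2 the brightest and the second probe were lower, and the dimmest (adjusted p = 0.36 by limma) did not pass. Probe sequences and the transcript parts they cover were not used here. On all 3 probes the level was lowest in the 2 cows numbered 3. On the second and the dimmest probe each of these 2 cows was detected on 1 of 2 arrays, so those low levels lie at the background.

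**Figure D3:**
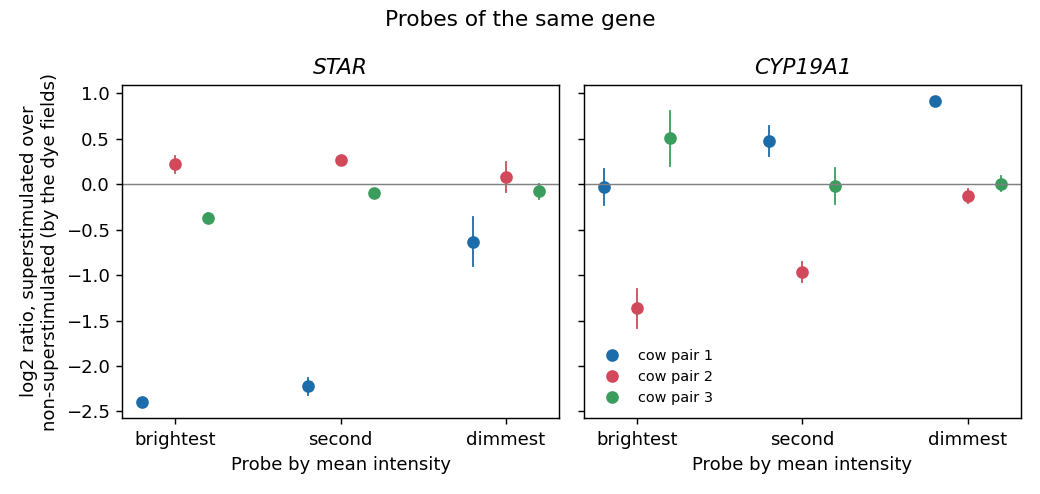
Log2 ratio of superstimulated over non-superstimulated cows, by the dye fields, for the 3 probes of STAR and the 3 of CYP19A1, ordered by mean intensity (x axis). Points are the mean of a cow pair and vertical lines join its 2 arrays. The 2 brighter STAR probes both lie below -2 in pair 1, and the ratio of CYP19A1 in pair 1 is -0.03, 0.47 and 0.92 on the 3 probes.

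The pairs were then tested singly against the error of the dye swap. That error is technical, so a call speaks of those 2 RNA extracts and not of other cows. In pair 1, 2 of the 9 genes passed an adjusted p of 0.05 by limma, STAR and HSD3B1, both lower, against 10.7% of all genes. In pair 2, SCARB1, FDX1 and CYP11A1 were higher and HSD3B1 and CYP19A1 lower, 5 of 9 against 35.7% of all genes. In pair 3, HSD3B1, FDX1, SCARB1 and CYP19A1 were higher and STAR lower, 5 of 9 against 46.9%. HSD3B1 passed in all 3 pairs, as did 6.15% of all genes, with adjusted p of 6.5e-05, 4.3e-07 and 5.1e-06 by limma. HSD3B1 and CYP19A1 passed in opposite directions in 2 pairs, which 16.4% of all genes did. Passing in 1 pair or more were 6 of the 9, against 59.0% of all genes, and in 2 or more 5 of the 9, against 28.2%.

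The ratio differed between pairs for 6 of the 9 genes at an adjusted p of 0.05 by limma, against 51.1% of all genes. All 3 probes of CYP19A1 and both tested probes of STAR did so as well, against 40.3% of all probes. Among genes detected in all channels the share was 70.8%, beside 6 of the 7 members tested there. The smallest adjusted p was that of HSD3B1, 1.1e-06, followed by SCARB1 (5.7e-06) and STAR (1.0e-05). CYP19A1, FDX1 and CYP11A1 also passed. CYP17A1, HSD17B1 and POR did not, the 3 genes whose probes lay near the detection limit in every cow. Genes of successive steps could have ratios of opposite sign or of unlike size in 1 pair. In pair 2 FDX1 and CYP11A1, which act in the same reaction, were higher with ratios of 2.52 and 1.30, while HSD3B1, the next enzyme, was lower at -3.22. In pair 1 STAR was lower at -2.39, while CYP11A1, to which STAR brings its substrate, had -0.11.

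Marker lists of cell types were read beside these ratios. Of 5 epithelial markers tested, 1 was detected in all 12 channels. In pair 2, 2 of the 5 were higher at an adjusted p of 0.05 by limma, against 13.8% of all genes. These were KRT8 with a ratio of 5.23 and KRT18 with 2.15, while KRT19 had 0.03, KRT7 0.05 and EPCAM -0.09. None of the 5 passed in pair 3, against 46.9% of all genes. The summed intensity of the 5 epithelial markers that passed the filter was 687, 7658 and 3485 in superstimulated cows 1, 2 and 3 and 719, 648 and 3517 in non-superstimulated cows. Superstimulated cow 2 had the highest of these sums, and the 2 cows numbered 3 had similar sums. Of 17 theca and stroma markers, 3 were higher and 5 lower in pair 2, and 5 higher and 3 lower in pair 3. Over all genes, 13.8% were higher and 21.8% lower in pair 2, and 27.3% and 19.6% in pair 3. On the theca and stroma list LUM, a matrix proteoglycan, had -0.06, 4.02 and 4.38 in pairs 1, 2 and 3 and DCN, another, 0.15, 2.30 and 0.30. Other genes of that list went the other way, such as MYH11 with -0.92, -1.10 and -4.25 and VIM with 0.63, -1.09 and -0.25. Of 7 luteal markers, 2 were higher and 2 lower in pair 2, and 2 higher and 1 lower in pair 3, beside the same shares of all genes. STAR, HSD3B1 and CYP11A1 are among these 7, so the luteal counts in part repeat the calls of the genes described here. TIMP1, a protease inhibitor on the luteal list, had -0.42, 3.34 and 2.66 in pairs 1, 2 and 3. Other luteal markers did not follow it: PTGFR had 0.15, 0.02 and 0.03, OXT -0.03, 0.25 and -0.26, and LHCGR 0.49, -0.73 and 0.10. LUM, DCN, MYH11, VIM and TIMP1 were chosen after their values were seen. The part of these markers in the ratios of SCARB1 and FDX1 was not tested.

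CYP11A1 and CYP19A1 shared a pattern over the cows that the comparison of groups does not show. The pattern and its limits of 4-fold and 2-fold were set after these levels were seen. The shares of genes below therefore describe the pattern and do not test it. In both genes the 2 cows numbered 3 lay below the other 4, by at least 2.20 for CYP11A1 and 2.16 for CYP19A1 on the log2 scale. Such a gap of 4-fold or more was seen for 6 genes in all, or 0.0486% of genes, one of 2-fold or more for 0.397%, and any such gap for 14.7%. CYP17A1 had a gap of 0.05. The other 4 were ID2, an inhibitor of DNA-binding helix-loop-helix factors, LRP8, a lipoprotein receptor, PDSS1, an enzyme of ubiquinone synthesis, and INHBB, the inhibin and activin beta B subunit, all chosen after their values were seen. LRP8 had 14.94, 14.72 and 11.69 in superstimulated cows and 14.71, 14.98 and 11.30 in non-superstimulated cows. INHBB had 12.84, 13.02 and 10.17 in superstimulated and 13.01, 12.63 and 9.41 in non-superstimulated cows. Cows of the same number shared both arrays, so an effect of the array cannot be told apart from 1 of the animals in these levels. The lowest foreground of CYP11A1 was 1.18 times the detection limit in superstimulated and 1.02 times in non-superstimulated cows. For CYP19A1 it was 1.75 and 1.09 times on the brightest probe. The low end of the gap thus lies near the background, and its size is uncertain. The gap was 1.62 for CYP11A1 and 2.21 for CYP19A1 on arrays 1 to 3 alone, 2.14 and 2.12 on arrays 4 to 6 alone, and 2.07 and 2.17 with no step between arrays, settings that were chosen after seeing the data.

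The wider pathway was read in 3 lists, and no member of any passed an adjusted p of 0.05 by limma over the 3 pairs. Of 36 other enzymes and electron carriers of steroid metabolism, 28 were tested. Their mean ratio was below 0 for 21 and above 0 for 7, with a median of -0.05 against -0.02 over all genes. In pair 1, 0 were higher and 3 lower, against 3.83% and 6.92% of all genes. In pair 2, 2 were higher and 6 lower, against 13.8% and 21.8%, and in pair 3, 7 and 6, against 27.3% and 19.6%. Between pairs, 14 of the 28 differed, against 51.1% of all genes. Only HSD17B11, a short-chain dehydrogenase found on lipid droplets, and CYP27A1, the mitochondrial sterol 27-hydroxylase, kept 1 sign on all 6 arrays. These 2 of the 28 stand beside 7.13% of all genes. HSD17B11 had ratios of -0.86, -0.32 and -1.80 in pairs 1, 2 and 3 and a mean of -0.99 ± 0.75 (SD, n = 3 pairs; adjusted p = 0.995 by limma). Its levels were 11.25, 10.92 and 10.41 in superstimulated cows, against 12.11, 11.24 and 12.21 in non-superstimulated cows. Superstimulated cow 1 and non-superstimulated cow 2 were level, so the groups met there. CYP27A1 had -0.41, -0.22 and -1.33.

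Of 49 genes of cholesterol delivery and storage, 33 were tested, 18 with a mean above 0 and 15 below, and a median of 0.02. In pair 1, 0 were higher and 8 lower, in pair 2, 10 and 4, and in pair 3, 11 and 6, beside those same shares of all genes. ACBD3, a Golgi protein that also binds the mitochondrial translocator protein, and CYP27A1 were the genes with 1 sign on all 6 arrays. That is 2 of the 33, beside 7.13% of all genes. ACBD3 had 0.09, 1.31 and 0.97 in pairs 1, 2 and 3. TSPO, the translocator protein itself, had 0.18, 0.02 and -0.77.

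Of 36 gonadotropin receptors and regulators of steroidogenic genes, 24 were tested, with a mean above 0 for 9 and below 0 for 15, and a median of -0.08. In pair 1, 2 were higher and 3 lower, in pair 2, 4 and 10, and in pair 3, 4 and 7, where all genes had the shares given for the enzymes. Of the 24, 19, or 79.2%, differed between pairs, against 51.1% of all genes and 70.8% of those detected in all channels. FSHR, the follicle-stimulating hormone receptor, was the one with 1 sign on all 6 arrays, 1 of the 24 beside 7.13% of all genes. Its ratio was -0.18, -0.72 and -0.67 in pairs 1, 2 and 3, with a mean of -0.53 ± 0.30 (SD, n = 3 pairs; adjusted p = 0.995 by limma). Its levels were 9.58, 8.79 and 8.30 in superstimulated cows and 9.77, 9.52 and 8.97 in non-superstimulated cows, which overlap. LHCGR, the luteinizing hormone receptor, had 0.49, -0.73 and 0.10, and was detected on 3 of 6 arrays in superstimulated and 4 of 6 in non-superstimulated cows. NR5A1, a nuclear receptor that drives steroidogenic promoters, had 0.03, -0.19 and 0.31. NR4A1, an early-response nuclear receptor chosen after its values were seen, had -0.15, 5.25 and -0.20.

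**Figure D4:**
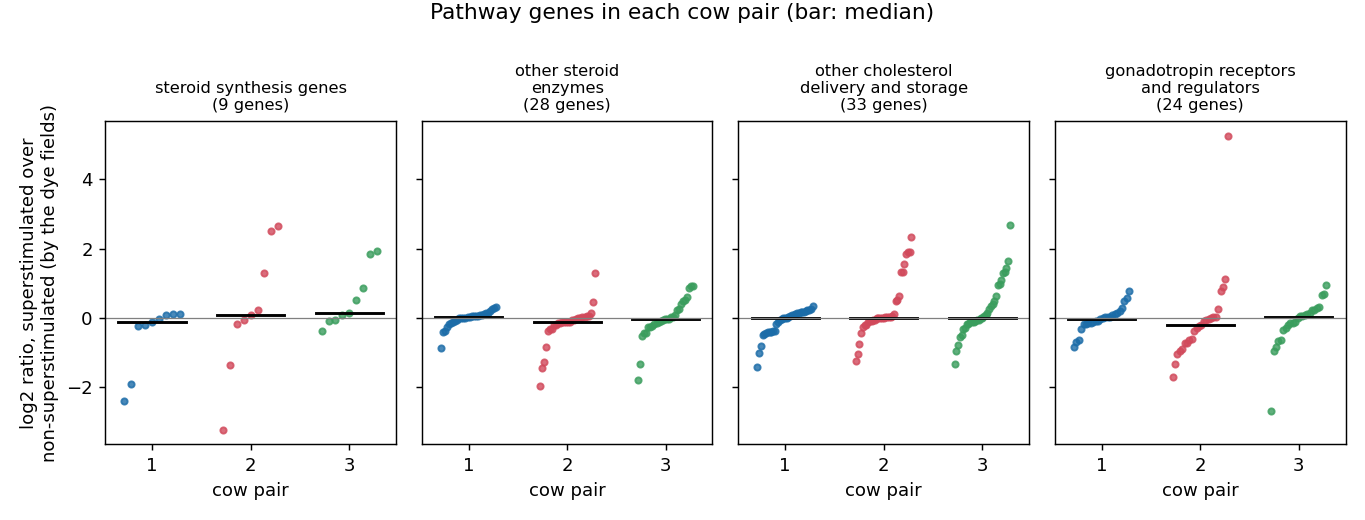
Log2 ratio of superstimulated over non-superstimulated cows, by the dye fields, of single genes (points, sorted) in each cow pair (x axis), for the 9 steroid synthesis genes and 3 lists of pathway genes. Black bars are medians. The medians stay near 0, while in pair 2 HSD3B1 lies at -3.22 and NR4A1 at 5.25.

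The genes whose level over the 6 cows was most like that of a member were read among 3665 genes detected in all channels and with a range of at least 1. They are a description over 6 cows that shared arrays in pairs, and none was tested. For CYP19A1 they were EFCAB2, MBTPS2, a protease that releases sterol regulatory factors, and REEP5, all with a Pearson r of 0.99. For HSD3B1 they were SEC22C and HTATSF1, each with 0.99, and COX20, an assembly factor of cytochrome oxidase, with 0.98. For STAR they were AS3MT with 0.92, TCTN1 and TFF2, each with 0.91.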

How the data were processed

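Cows, 3 superstimulated and 3 not, were read on 6 arrays of 2 colours. The deposited scanner tables hold raw foreground and background intensity per spot for lasers of green (Cy3) and red (Cy5), per the file headers; the sources used here name no scanner or software. The authors' deposited log2 ratios, with unstated normalization, served as an alternative: each column correlated at 0.695 to 0.834 with red over green of its own array and at most 0.335 with another, and had a median of -0.004, -0.011, -0.035, -0.011, -0.006 and -0.008 on arrays 1 to 6.

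Of 45220 spots, 8 had no name and 42 were flagged to be ignored on 1 array or more, and these were dropped. Foreground means were corrected by normexp with an offset of 50, and ratios normalized by loess in each array with control spots at weight 0. Probes above the negative controls in 1 channel or both on at least 3 arrays were kept. Of 43794 platform probes, 21790 had 1 symbol, none several and 22004 were unnamed here; 20025 symbols matched a RefSeq table of ARS-UCD2.0, 1524 a synonym and 241 nothing. A gene was read on its brightest probe. Dye swaps share their extracts and were averaged, and 3 pairs were tested against 0 with limma 3.58.1 in R 4.3.3, adjusted by Benjamini-Hochberg over all genes. Single pairs came from a model with terms for pair and dye, with the error of the dye swap. The level of a cow was read from its own channels after Aquantile, as the mean of both dyes. Figures used Python 3.11.15 and matplotlib 3.10.9. The fits were tested on simulated data.

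As a check of pairing, the deviations of same-numbered cows from the means of their groups correlated over genes at 0.177, 0.0398 and 0.272. Superstimulated cow 1 correlated more with non-superstimulated cow 2, at 0.230, and superstimulated cow 2 slightly more with non-superstimulated cow 1, at 0.0420. Only in pair 3 was the cow of the same number the most alike. Cows of the same number shared arrays, and the labels do not say that the animals were matched. The genes and lists were chosen with earlier results of these data known. Named genes were all members, in each list up to 5 genes of 1 sign on all 6 arrays with the largest mean, FSHR, LHCGR, NR5A1 and TSPO (another gene of this rule is not reported here), and the 3 genes most like STAR, HSD3B1 and CYP19A1. Of the marker lists, those of luteal cells, red cells, oocytes and adrenal cortex had 4 of 9, 1 of 6, 2 of 10 and 2 of 5 members with a probe detected in all channels. Some marker lists share genes with those described here. The luteal list holds STAR, HSD3B1 and CYP11A1, and the granulosa list CYP19A1 and HSD17B1. CYP17A1 is on the theca list, and STAR and CYP17A1 are on that of adrenal cortex. Alternatives changed the background correction, normalization, filter, probes, values, replicates and slides.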

Additional observations from a re-analysis of the deposited data

How the results depend on the processing

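None of the 9 genes passed an adjusted p of 0.05 under any of the 17 other settings in which it was tested. With detection required in all channels only 7 of them were tested, without CYP17A1 and HSD17B1. The lowest adjusted p of a member by limma was 0.31, with 6 independent arrays. That setting and a random block for the cow pair (the paired fit of 6 arrays) each called 1 gene, RAB15, with adjusted p = 0.0042 and 0.028 by limma. The block changed no other call. Taking the 6 arrays as independent counts the 2 dye swaps of the same extracts as separate animals, so p-values of that setting are too small. The 3 cows against 3 unpaired called 0. Without any 1 pair, 0 genes were called, and of 27 combinations of member and pair, 12 of which passed against 31.1% over all genes, 7 to 10 of the remaining 18 did, against 31.3% to 39.5%. Leaving the exchanged dyes aside, 136 of 142 other values of the members' mean ratios kept their sign. Settings that changed only the filter, the pairing or the error of the fit returned the main means exactly. Signs under these settings could not turn, so the count overstates how stable the signs are. The size of the means rests on single pairs. STAR was -0.07 without pair 1, HSD3B1 -0.03 and CYP11A1 0.01 without pair 2, and over the 3 omissions STAR had -1.38 to -0.07, HSD3B1 -2.56 to -0.03, CYP11A1 0.01 to 0.71, SCARB1 0.32 to 1.76, FDX1 0.86 to 2.23, POR 0.0086 to 0.093, CYP19A1 -0.70 to 0.24, CYP17A1 -0.0038 to 0.076 and HSD17B1 -0.11 to 0.029. CYP17A1 had -0.099 on arrays 1 to 3, and POR -0.0073 without background subtraction and -0.064 on arrays 4 to 6. The cause was not tested. With the dyes of the design text all signs turn: STAR 0.85, CYP11A1 -0.44, HSD3B1 1.09, CYP19A1 0.30, CYP17A1 -0.025, HSD17B1 0.036, FDX1 -1.42, POR -0.042 and SCARB1 -1.10. At an unadjusted p under 0.05 by limma, FDX1 and SCARB1 appeared with 6 independent arrays and with the block, FDX1 without pair 1 (2.23) and HSD3B1 without pair 3 (-2.56). Without a pair, 5 to 7 members differed between pairs, against 38.3% to 42.1% of all genes. With detection required in all channels, 12 of 21 combinations passed, against 42.9% over all genes so tested. The deposited values gave 9 of 27 combinations, against 9.73%, and 5 members that differ between pairs, against 17.3% of all genes. Low signal limits CYP17A1, HSD17B1 and POR in every cow, and HSD3B1, CYP11A1 and CYP19A1 in the cows where they were lowest.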
